A study of Mus musculus with 33 samples.

Results

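The tumours described here are the left and right flank tumours that grew in the same mouse, compared with each other. They were chosen by ear tag: 13 of the 20 mice in the series had both a left (L) and a right (R) tumour profiled, which gives 26 of the 33 tumours. The question is how far a pair of tumours that share host, treatment and injected cells differ, and in which genes.

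All tumours came from Myc-CaP, a prostate carcinoma line of mice carrying a MYC transgene, implanted under the skin on each side of male FVB mice. Of the paired mice, 5 received vehicle, 3 received ESK981 at 15 mg/kg, 3 received ESK981 plus anti-PD-1 (the combination) and 2 received anti-PD-1. ESK981 is an oral inhibitor of several kinases, among them the lipid kinase PIKfyve, and anti-PD-1 blocks an inhibitory receptor of T cells. The labels give 200 µg per injection for anti-PD-1 or its isotype control, and tumours were taken at 3 weeks. Neither age nor any allele beyond strain and line is stated in the labels. Mice are numbered within their group (vehicle 1 to 5, ESK981 1, 3 and 5, combination 1, 3 and 4, anti-PD-1 3 and 4), and a tumour is named by mouse and flank, as in vehicle 5R. The numbers pair nothing across groups.

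Bilateral tumours are often used as if they were replicates of one host. Both see the same circulating immune cells, hormones and drug, but each is seeded separately and builds its own vessels, stroma and immune infiltrate. Interferon gamma, released by activated T and NK cells, switches on chemokines, antigen presentation and guanylate-binding proteins, so these genes report local immune activity. Hypoxia genes report local oxygen supply, and cell cycle genes report the share of dividing cells.

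Levels are given in FPKM, fragments scaled to exon length and library size, as deposited. Differences are R minus L of log2(FPKM + 0.5); the added 0.5 shrinks differences of weakly expressed genes, and a positive value means a higher level in the right tumour. Because whole tumours were measured, fewer cells of a type and less RNA per cell cannot be told apart.

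The labelled cell type was checked against epithelial markers. Of 13 genes for epithelial adhesion and keratins, 6 passed the filter on low values. Krt8, a keratin of simple epithelia, ranged from 3.73 to 117 FPKM with a median of 18.3, and Krt19 from 14.1 to 112. The claudin gene Cldn3 ran from 25.5 to 63.0. Epcam, an adhesion gene that defines most epithelia, was listed at 0 in 15 tumours and reached 0.203, and Krt18, the usual partner of Krt8, had a median of 0.120. Pbsn, a secretory gene of the prostate, was listed at 0 in all 26. Some keratins and a claudin were therefore present, while Epcam, Krt18 and Pbsn were absent or nearly so. Myc ranged from 3.20 to 17.2, and the labels do not say whether fragments of the MYC transgene count in it.

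The libraries of a pair were not equal in depth. Fragments per tumour ranged from 9901150 in vehicle 5R to 32439000 in ESK981 1R. Vehicle 5R and anti-PD-1 4R (11317300) were the shallowest of the 26 and held the most mitochondrially encoded RNA, with 90856 and 52728 summed FPKM against 22070 and 7589 in their left partners. Their median gene was lower than in the left tumour by a log2 of 0.42 and 0.47, against medians from -0.16 to 0.079 in the other 11 mice, and a median-of-ratios rescaling brought every mouse's median to within 0.02 of 0. Over the 13 mice, R minus L was -0.22 ± 0.41 (SD) for log2 fragments (adjusted p = 0.169, exact sign-flip permutation test, two-sided, 3 measures). It was 0.55 ± 1.15 for mitochondrial FPKM (adjusted p = 0.169, exact) and 0.20 ± 0.90 for FPKM on ribosomal RNA sequence (adjusted p = 0.453, exact).

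No gene was called between the flanks. Of 15846 genes tested with a block for the mouse, 0 (0%) were called at a limma adjusted p under 0.05, and the smallest adjusted p was 0.535. At an unadjusted p under 0.05 there were 1342 genes (8.47%), of which 152 (0.959% of genes tested) were higher on the right. With median-of-ratios scaling 0 were called and 787 lay under an unadjusted 0.05, of which 53.1% were higher on the right. Without vehicle 5 and anti-PD-1 4 the numbers were 0 and 505, and leaving out either alone gave 726 and 847 at an unadjusted 0.05. The share of these uncalled genes that was higher on the right was 11.3% in the main run and 25.5% without both mice. It was 15.3% without vehicle 5 alone and 15.9% without anti-PD-1 4 alone. Most of them thus stayed lower on the right without these mice, and the split was near even only with scaling.

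The genes with the smallest unadjusted p are given as values, since none passed. Higher on the right were Crip1, a small LIM protein (R minus L 0.56 ± 0.13 SE, 11 of 13 mice), Folr2, a folate receptor of tissue macrophages (0.64 ± 0.17, 10 of 13), and Ccl9, a chemokine for myeloid cells (0.72 ± 0.20, 11 of 13). Their limma adjusted p was 0.535 in each case. Lower on the right were the small nucleolar RNA Snora47 (-0.56 ± 0.13), the corepressor Lcor (-0.24 ± 0.060), the splicing factor Tra2a (-0.34 ± 0.089) and the zinc finger gene Zfp7 (-0.31 ± 0.074), at the same adjusted p. Slfn5, Gda and Ifi27l2a on the one side, and Zfp212 and Poglut1 on the other, completed the list.

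The median R minus L of all genes was -0.096, and 3276 of the 15846 were higher on the right on average. Of the 43 gene lists summarised, the medians farthest from it were those of alternatively activated macrophages (0.64), mitochondrially encoded genes (0.47), Pol III and vault RNAs (0.32), B and plasma cells (-0.47), ribosomal RNA sequence (0.28), mast cells (-0.46), neutrophils (0.25) and cholesterol synthesis (-0.37). Without vehicle 5 and anti-PD-1 4, mitochondrially encoded genes stood at 0.18, Pol III and vault RNAs at 0.062, ribosomal RNA sequence at 0.15, neutrophils at 0.14 and mast cells at -0.18. In the list of alternatively activated macrophage genes, 7 of 7 tested members were higher on the right on average, with 0 members called and 4 of 7 under an unadjusted 0.05, against 8.47% of all genes. Their median was 0.74 with median-of-ratios scaling and 0.44 without vehicle 5 and anti-PD-1 4, with 7 of 7 members higher in both. Retnla, a secreted product of such macrophages, stood at 0.0729 FPKM in anti-PD-1 4L and 20.5 in 4R, and at 2.97 and 19.4 in vehicle 2L and 2R. It was higher on the right in 9 of 13 mice (1.14 ± 0.41 SE, limma adjusted p = 0.535). Of 15 cholesterol synthesis genes, 11 had an unadjusted p under 0.05, against 8.47% of all genes, and 0 were called. All 15 were lower on the right on average, which was also the direction of most genes. Their median was -0.27 with scaling and -0.26 without the same 2 mice.

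No gene was called for a flank difference that varied with treatment. The test across the 4 treatments called 0 of 15846 genes (0%), with a smallest limma adjusted p of 0.977 and 315 genes (1.99%) under an unadjusted 0.05. That number was 1653 without anti-PD-1 3, which leaves 1 anti-PD-1 mouse assumed to vary like the others, and 533 without vehicle 4. The smallest p belonged to small RNA genes with few fragments (Mir6909, Mir5098, Mir7669), to Tmsb10, an actin-binding peptide, and to the collagen gene Col5a3, whose mean R minus L was 1.09 in vehicle, 0.094 in ESK981, -0.50 in the combination and 0.30 in anti-PD-1. All had an adjusted p of 0.977.

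Absolute differences describe how unlike the tumours of a pair were. The mean over 13 mice of the absolute R minus L difference had a median over genes of 0.311, and 435 genes (2.75%) reached a mean of 1 or more. Among the 10325 genes with a mean log2 level of at least 1, 173 (1.68%) did. The number of genes that differed by more than 1 within a mouse ran from 426 (2.69%) in combination 4 and 488 (3.08%) in ESK981 3 to 2067 (13%) in vehicle 5 and 3109 (19.6%) in anti-PD-1 4. The other vehicle pairs had 1115 (7.04%), 1143 (7.21%), 1307 (8.25%) and 1332 (8.41%) in vehicle 1 to 4. Of the treated pairs, ESK981 1 had 1714 (10.8%) and combination 1 had 1454 (9.18%), while ESK981 5 (671, 4.23%), combination 3 (658, 4.15%) and anti-PD-1 3 (640, 4.04%) had fewer. Every vehicle tumour but 5R carried a run name that no treated tumour had. FPKM on ribosomal RNA sequence ran from 127087 to 240279 in vehicle and from 17789 to 179159 in the paired treated tumours. The part of run and library make-up in these counts was not tested.

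Before scaling, the tumours of a mouse were slightly more alike across genes than in most other pairings within a treatment. The median of 0.311 was set against all 8640 ways to pair left and right tumours within a treatment, which gave a median of 0.337 and a range from 0.290 to 0.379. Of these pairings, 311 gave a value as low as the true pairing or lower (p = 0.0360, exact permutation test, one-sided). This call was lost with median-of-ratios scaling (0.278, exact p = 0.0839), without vehicle 5 and anti-PD-1 4 (0.264, exact p = 0.189) and over the 10 pairs whose labels carry the same run name and lane (0.290, exact p = 0.153). Most pairs thus shared a run name and lane as well as a mouse, and the part of the lane in the likeness of a pair was not tested.

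By gene, no host effect was called. The limma test for differences between mice of the same treatment called 0 of 15846 genes (0%), with a smallest adjusted p of 0.198, and 2479 genes (15.6%) had an unadjusted p under 0.05. Leaving out 1 mouse moved that number both ways, to 1495 without vehicle 5 and to 2999 without combination 1. The intraclass correlation, the share of the variance within a treatment that lies between mice (negative where tumours of a mouse are less alike than those of different mice), had a median of 0.21 over genes. The gene with the smallest p, Slc29a2, a nucleoside transporter, had an intraclass correlation of 0.84. It stood at 1.03 and 1.04 FPKM in the L and R tumours of vehicle 4 and at 3.72 and 3.17 in those of anti-PD-1 3. Erlin1, Lyrm2, Bcs1l, Ampd2 and Cpxm1 followed, with correlations of 0.67 to 0.82.

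Some lists combined large differences within a pair with a large host share, and others did not. Among skeletal muscle genes, 15 of 16 had an unadjusted host p under 0.05 (median intraclass correlation 0.55), against 15.6% of all genes. Fibroblast and matrix genes had 10 of 15 (0.48), mast cell genes 4 of 4 (0.50), neutrophil genes 4 of 5 (0.37) and integrated stress response genes 9 of 13 (0.35). T cell genes had 0 of 12 (0.070), CD8 and cytotoxic genes 1 of 8 (-0.14), MHC class II genes 0 of 7 (0.17) and proliferation genes 0 of 29 (0.057). No gene of these lists passed the adjusted test.

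**Figure D1:**
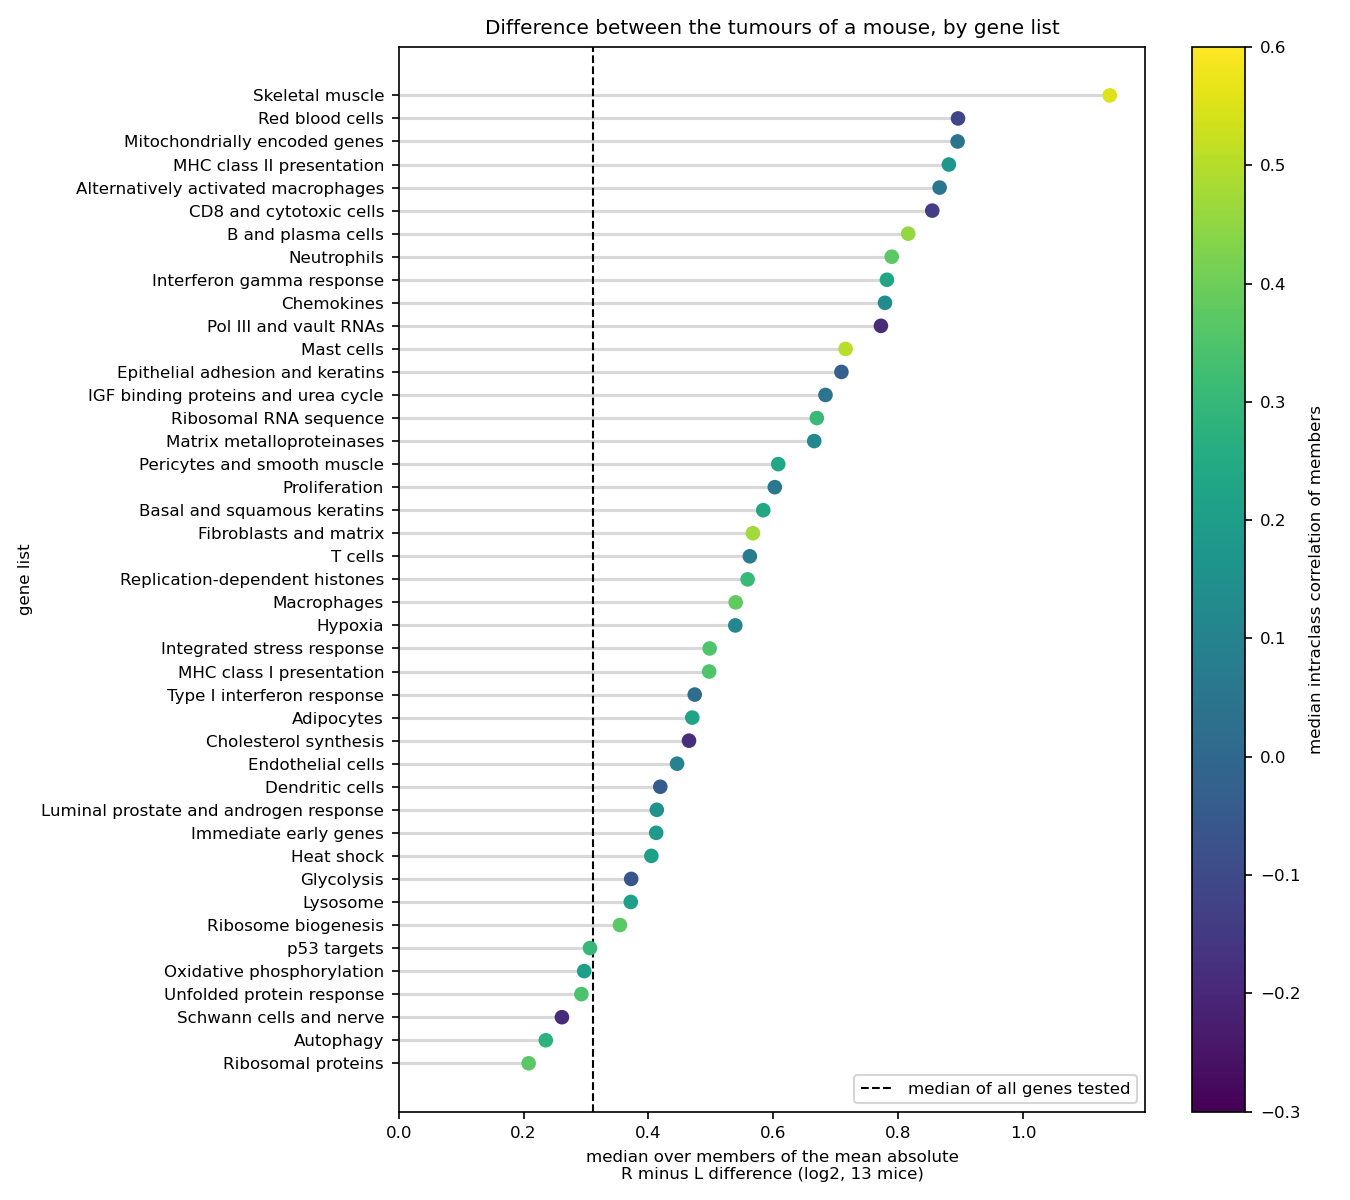
Gene lists with at least 3 members tested, ordered by the median over members of the mean absolute difference between the tumours of a mouse (log2 axis units, 13 mice); colour shows the median intraclass correlation and the dashed line the median of all genes tested, 0.311. Skeletal muscle genes lie highest at 1.14 and ribosomal protein genes lowest at 0.21.

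Skeletal muscle genes led the lists in the size of the difference within a mouse (median of the mean absolute difference 1.14), followed by red blood cell genes (0.90), mitochondrially encoded genes (0.90), MHC class II presentation (0.88), alternatively activated macrophages (0.87), CD8 and cytotoxic cells (0.85), B and plasma cells (0.82), neutrophils (0.79), the interferon gamma response (0.78), chemokines (0.78) and Pol III and vault RNAs (0.77). The median of all genes was 0.31. Proliferation genes stood at 0.60, fibroblast and matrix genes at 0.57, T cell genes at 0.56, macrophage and hypoxia genes at 0.54 each. The lowest lists were ribosomal proteins (0.21), autophagy (0.24), Schwann cells (0.26) and the unfolded protein response (0.29). Low levels hold these values down through the added 0.5: with 0.1 added instead, the T cell list rose to 1.08 and the B and plasma cell list to 1.26.

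The interferon gamma list was among the lists with large differences within a pair, and 1 of its promoters is shown. The RefSeq promoter table (GRCm38.p6, 250 bases before to 50 after each start) held 13 of the 20 tested members, with 15 windows. The core of the interferon-stimulated response element, TTTC, any 2 bases and TTTC on either strand, was in 9 of the 15 (60%) against 3.44% of all 32851 windows. The windows of Cxcl9, Cd274 and Irf1 held no such core. Capitals mark the response element core in the window of Gbp2 (chr3:142620413-142620712, plus strand).
Gbp2: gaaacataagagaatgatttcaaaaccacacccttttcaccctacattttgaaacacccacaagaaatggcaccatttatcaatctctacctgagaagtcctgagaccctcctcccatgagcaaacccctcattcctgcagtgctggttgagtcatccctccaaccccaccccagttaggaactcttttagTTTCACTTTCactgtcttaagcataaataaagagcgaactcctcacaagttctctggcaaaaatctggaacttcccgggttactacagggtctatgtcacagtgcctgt
A match is a description of letters and not of binding.

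The interferon gamma response was split between flanks in opposite ways in different mice. In combination 1, 20 of 20 members were higher on the right, all by more than 1 (median 1.84). In vehicle 1, 19 of 20 were higher on the right (0.97), in ESK981 3 18 of 20 (0.61) and in anti-PD-1 3 18 of 20 (0.50). Combination 4 had 18 of 20 at a small median (0.088). Members were divided in other pairs. Vehicle 2 and ESK981 5 had 7 of 20 higher on the right in each (-0.041 and -0.062). Vehicle 3 and combination 3 had 6 of 20 in each (-0.27 and -0.25). In vehicle 5, 0 of 20 were higher on the right (median -1.28), in ESK981 1 0 of 20 (-0.95), in vehicle 4 3 of 20 (-0.64) and in anti-PD-1 4 1 of 20 (-1.95). The last value and that of vehicle 5 moved to -1.43 and -0.92 with median-of-ratios scaling. Mitochondrially encoded genes were higher on the right in pairs of both directions (list medians of 1.74 in vehicle 1, 1.60 in combination 1, 1.84 in vehicle 5 and 2.34 in anti-PD-1 4), and their part in the split was not tested. Averaged over mice, the list had a median R minus L of -0.10, beside -0.096 for all genes.

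Gbp2, a guanylate-binding protein induced by interferon gamma, had the sign of the list median in all pairs but vehicle 3 and ESK981 5. In those pairs Gbp2 was higher on the right, by 0.49 and 0.060. Its left and right FPKM were 28.5 and 58.6, 44.8 and 39.7, 52.3 and 73.7, 75 and 29.5, and 31.9 and 9.03 in vehicle 1 to 5. They were 19.8 and 6.79, 11.6 and 22.5, and 9.19 and 9.60 in ESK981 1, 3 and 5. In combination 1, 3 and 4 they were 6.18 and 38.9, 64.2 and 56.9, and 28.2 and 29.1, and in anti-PD-1 3 and 4 they were 22.0 and 35.2, and 41.8 and 9.13. The right tumour was higher in 7 of 13 mice, the flanks overlapped in all 4 groups, and the mean absolute difference was 0.99 against a mean R minus L of -0.098 ± 0.32 (SE, limma adjusted p = 0.895). Irf1, an interferon-induced transcription factor chosen after its values were seen, had a mean absolute difference of 0.62, largest in combination 1 at 1.63.

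Ccl5, a chemokine that draws T cells and monocytes, had the highest mean absolute difference of the CD8 and cytotoxic list, 1.43. Its left and right FPKM were 5.36 and 34.8, 26.6 and 13.3, 46.4 and 12, 26.7 and 7.16, and 13.1 and 3.26 in vehicle 1 to 5. They were 5.65 and 2.99, 1.78 and 3.51, and 1.80 and 1.72 in ESK981 1, 3 and 5. In combination 1, 3 and 4 they were 0.999 and 20.3, 41.1 and 19.4, and 5.45 and 8.35, and in anti-PD-1 3 and 4 they were 10.9 and 23.6, and 22.4 and 9.20. Vehicle 1 and combination 1 stood against the other vehicle mice and combination 3, in which the left tumour was higher. The right tumour was higher in 5 of 13 mice, and R minus L was -0.068 ± 0.44 (SE, limma adjusted p = 0.944).

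Cd3e, a subunit of the T cell receptor complex, was low in all tumours, from 0.0703 FPKM in vehicle 5R to 2.56 in combination 3L. Left and right values were 0.846 and 1.88, 1.88 and 1.46, 2.16 and 1.02, 2.17 and 0.374, and 1.45 and 0.0703 in vehicle 1 to 5. They were 0.671 and 0.279, 0.227 and 0.809, and 0.261 and 0.329 in ESK981 1, 3 and 5. In combination 1, 3 and 4 they were 0.203 and 1.41, 2.56 and 2.5, and 1.03 and 0.994, and in anti-PD-1 3 and 4 they were 0.973 and 1.62, and 1.61 and 0.246. The left tumour was higher in 4 of 5 vehicle mice, the flanks overlapped in all 4 groups, and R minus L was -0.22 ± 0.25 (SE, limma adjusted p = 0.679). For the whole T cell list, the median R minus L ran from -1.09 in anti-PD-1 4 to 1.09 in combination 1, with 12 of 12 members higher on the right in the latter. CD8 and cytotoxic genes ran from -1.56 in vehicle 5 to 1.87 in combination 1.

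Antigen presentation and checkpoint genes differed in many of the same mice. H2-Ab1, a class II chain shown on antigen-presenting cells, stood at 60.1 and 149 FPKM in the left and right tumours of vehicle 1, 14.7 and 75.1 in combination 1, 141 and 54.2 in vehicle 3 and 116 and 50.0 in anti-PD-1 4. Cd274, which encodes the PD-1 ligand PD-L1, stood at 4.74 and 20.2 in vehicle 1 and at 20 and 6.49 in vehicle 3. Ctss, a protease that trims the class II invariant chain, went from 32.6 to 218 between the left and right tumours of combination 1. Class I genes had a median of the mean absolute difference of 0.50, with list medians of 1.68 in combination 1 and -1.04 in both vehicle 5 and anti-PD-1 4. With median-of-ratios scaling the last pair of values was -0.51 and -0.48, and vehicle 4 stood at 0.071 before scaling.

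Correlations of the R minus L differences over the 13 mice, in a family of 12 gene pairs, describe which genes moved together. H2-Ab1 and Cd3e gave r = 0.92 (adjusted p = 6e-05, permutation test with 100000 resamples) and rho = 0.93 (adjusted p = 0.0002, permutation), and r = 0.88 without the 2 mice farthest from the median. Cd3e and Gzmb, a granule protease of killer cells, gave r = 0.94 (adjusted p = 6e-05, permutation) and rho = 0.92 (adjusted p = 0.0002, permutation), with 0.95 without 2 mice. Cxcl9, a chemokine induced by interferon gamma, and Gbp2 gave r = 0.91 (adjusted p = 7.2e-05, permutation) and rho = 0.91 (adjusted p = 0.0002, permutation), with 0.85 without 2 mice. Within the 10 pairs of the same run name and lane the 3 values of r were 0.90, 0.91 and 0.88.

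Cd274 and Gbp2 gave r = 0.82 and rho = 0.80 (adjusted p = 0.00104 and 0.0035, permutation), and r = 0.65 without 2 mice. Cxcl9 and Cd8a, a chain of the killer T cell coreceptor, gave r = 0.72 and rho = 0.73 (adjusted p = 0.0114 and 0.0113, permutation), and r = 0.52 without 2 mice; within the 10 pairs of the same run name and lane r was 0.63. Adgre1, a macrophage surface marker, and the collagen gene Col1a1 gave r = 0.63 (adjusted p = 0.0302, permutation) and rho = 0.53 (adjusted p = 0.0962, permutation), and r = 0.28 without vehicle 4 and combination 3, so this relation rests on those mice. Mki67, a marker of dividing cells, gave r of 0.16 with Cd3e, -0.090 with Col1a1 and -0.19 with Adgre1 (adjusted p = 0.703, 0.767 and 0.696, permutation), with rho of 0.066, -0.31 and -0.25. Pecam1, an endothelial marker, gave r = -0.14 and rho = -0.077 with Col1a1 (adjusted p = 0.703 and 0.835, permutation). Within the 10 pairs of the same run name and lane, r was 0.70 for Cd274 with Gbp2 and 0.70 for Adgre1 with Col1a1. For Mki67 it was 0.22 with Cd3e, -0.085 with Col1a1 and -0.12 with Adgre1, and for Pecam1 with Col1a1 it was 0.071.

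**Figure D2:**
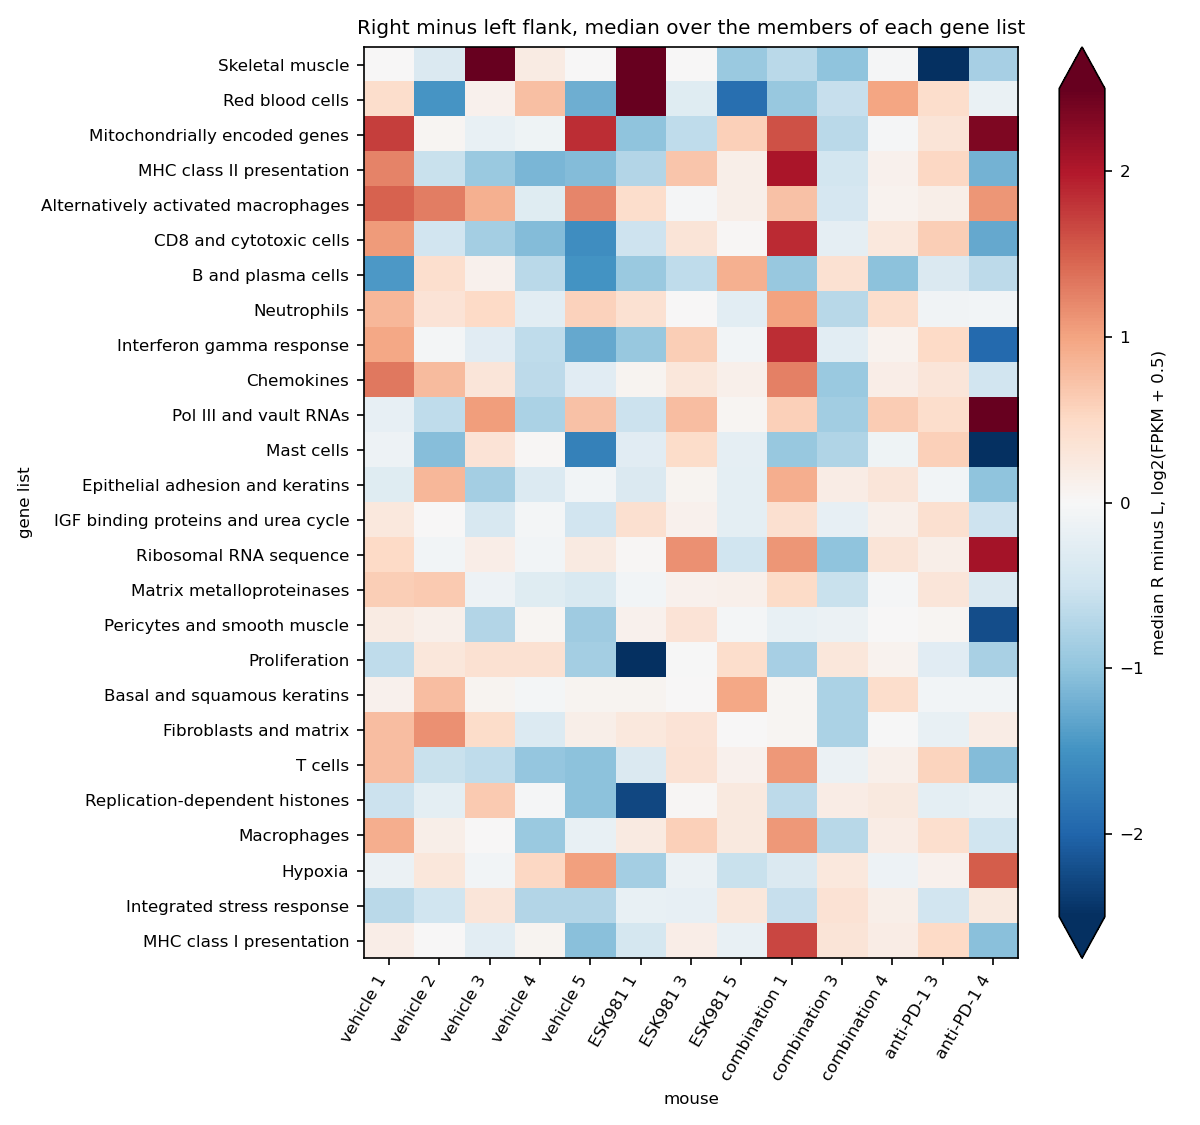
Median R minus L difference on the log2(FPKM + 0.5) scale over the members of the 26 gene lists with the highest within-mouse difference (rows), for each of the 13 mice (columns); red is higher in the right tumour and blue higher in the left. The class II, CD8, T cell and interferon gamma rows are red in vehicle 1 and combination 1 and blue in vehicle 4, vehicle 5 and anti-PD-1 4, and colours are cut at 2.5.

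**Figure D3:**
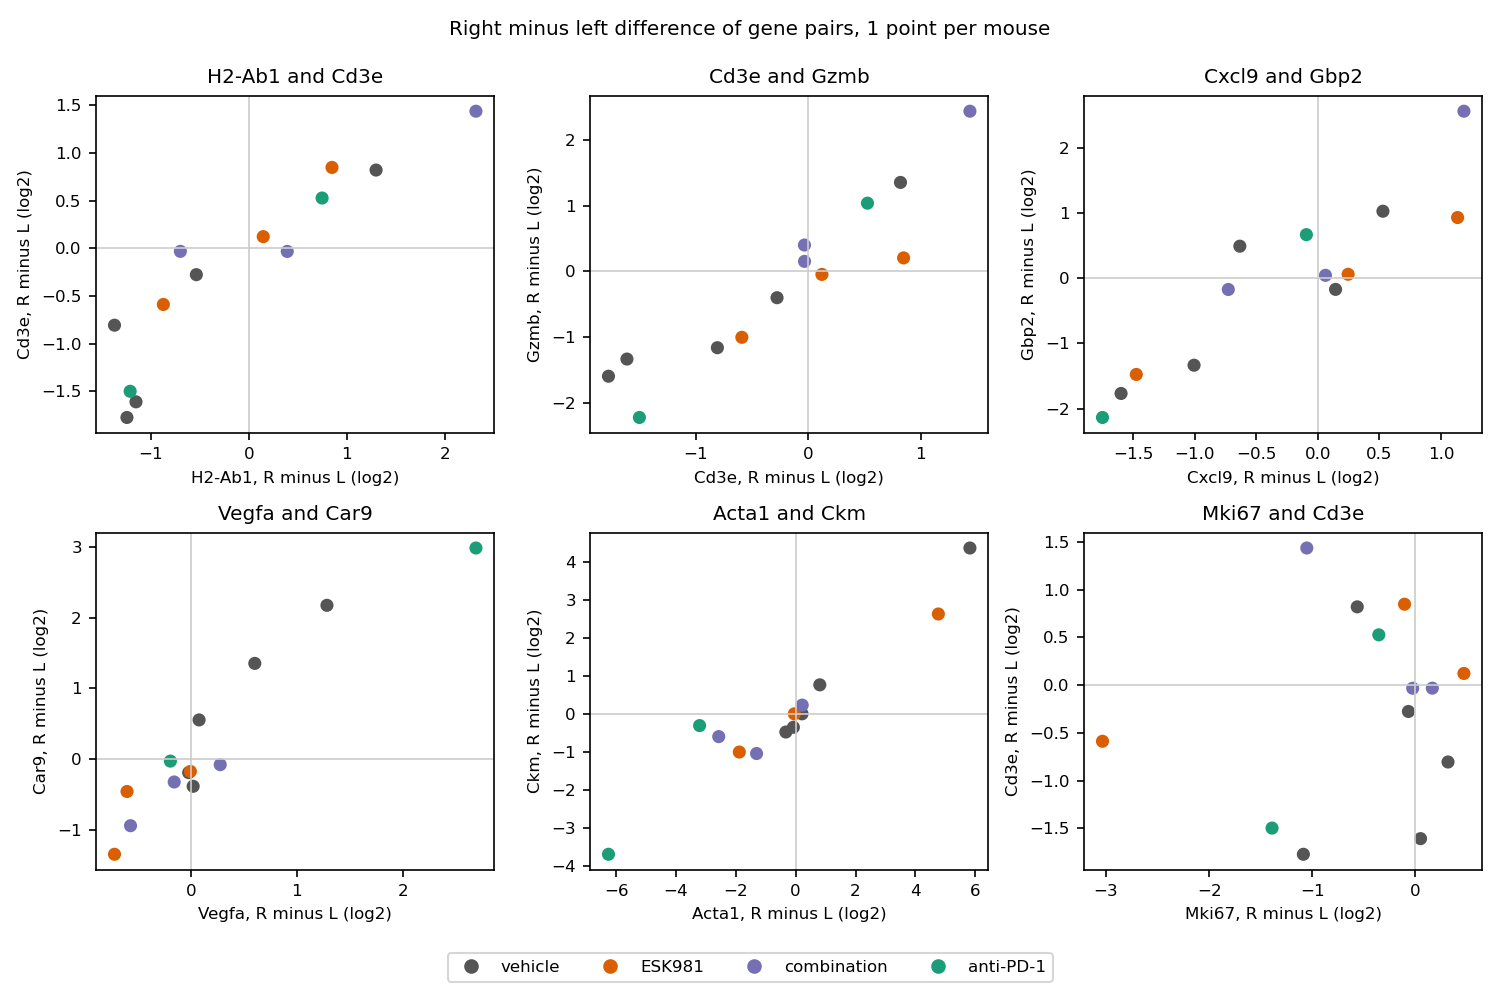
R minus L differences (log2) of 6 gene pairs, 1 point per mouse, coloured by treatment. H2-Ab1 with Cd3e, Cd3e with Gzmb, Cxcl9 with Gbp2, Vegfa with Car9 and Acta1 with Ckm lie along a line (r from 0.91 to 0.95), and Mki67 with Cd3e does not (r = 0.16).

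Proliferation genes differed most in ESK981 1. Before scaling, Mki67 was over 1 apart in 4 of 13 mice, vehicle 5 and anti-PD-1 4 among them. Mki67 left and right values were 26.2 and 17.5, 17.0 and 16.2, 16.8 and 21.1, 17.7 and 18.3, and 18.1 and 8.27 in vehicle 1 to 5. In ESK981 1 they were 26.5 and 2.80, the lowest value of all 26 tumours, and in combination 1 35.5 and 16.8. The remaining ESK981 and combination pairs, with anti-PD-1 3, differed by at most 0.47, while anti-PD-1 4 had 20.5 and 7.5. In ESK981 1R, 29 of 29 proliferation genes were lower by more than 1 (median -2.56). The list median was -0.64 in vehicle 1, -0.85 in vehicle 5, -0.83 in combination 1 and -0.81 in anti-PD-1 4. It lay between -0.29 and 0.45 in the other 8 mice. These medians are before scaling, and the median of all genes was itself -0.42 in vehicle 5 and -0.47 in anti-PD-1 4. In ESK981 1, replication-dependent histone genes had a median of -2.27. The same tumour had higher skeletal muscle (2.58) and red blood cell genes (3.79), with Hbb-bs, a beta-globin, at 3.40 and 67.8 FPKM. The part of these cells in the fall of proliferation genes was not tested.

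Hypoxia genes were higher on the right in some pairs and on the left in others. In anti-PD-1 4, 16 of 16 members were higher on the right (median 1.51), and in vehicle 5 16 of 16 (1.02), the pairs whose right libraries were shallow and rich in mitochondrial RNA. With median-of-ratios scaling these medians were 2.09 and 1.55. In vehicle 4, 14 of 16 were higher on the right (0.51), while in ESK981 1 and ESK981 5 1 of 16 was in each (-0.86 and -0.56). Vegfa, the main signal for vessel growth, stood at 23.4 and 154 FPKM in anti-PD-1 4 and at 29.1 and 71.6 in vehicle 5, and between 13.2 and 46.8 in the other tumours. Car9, a carbonic anhydrase induced by low oxygen, stood at 4.24 and 37.0 and at 3.89 and 19.3. Vegfa and Car9 gave r = 0.95 (adjusted p = 7.2e-05, permutation) and rho = 0.87 (adjusted p = 0.000552, permutation) over the 13 mice, r = 0.87 without those 2 and r = 0.96 within the 10 pairs of the same run name and lane. In the same right tumours vessel genes were lower before scaling: the endothelial list had medians of -1.52 and -1.12, and pericyte genes -2.22 and -0.89. The median of all genes was also lower there, at -0.47 in anti-PD-1 4 and -0.42 in vehicle 5.

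Skeletal muscle genes were high in a few tumours. Summed over 17 genes they ranged from 9.01 to 370 FPKM, and were high in both tumours of vehicle 2 (370 and 293) and of combination 3 (145 and 68.9) but in 1 flank only in vehicle 3 (9.93 left, 133 right), ESK981 1 (9.81 and 87.5) and anti-PD-1 3 (166 and 11). Acta1, the actin of skeletal muscle, was the gene with the highest mean absolute difference, 2.12. It is encoded at chr8:123891769-123894751 on the minus strand and stood at 48.2 and 0.138 FPKM in anti-PD-1 3 and at 0.0355 and 29.8 in vehicle 3. Ckm, muscle creatine kinase, was listed at 0 in 9 of the 26 tumours. Acta1 and Ckm gave r = 0.95 (adjusted p = 7.2e-05, permutation) and rho = 0.89 (adjusted p = 0.00021, permutation), r = 0.88 without 2 mice and 0.96 within the 10 pairs of the same run name and lane. Of the 16 members tested, 15 were higher in the left tumour in anti-PD-1 3 by more than 1.

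Red blood cell genes, with 3 of 6 tested, rested on few tumours. The summed list ranged from 4.66 to 110 FPKM, the highest being ESK981 1R. Fat cell genes reached 51.0 in anti-PD-1 4R against a median of 14.5. Of the skin and hair list, 0 members passed the filter, and its summed level was at most 4.47.

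Krt8, Cck and Fgb also differed within mice. Krt8 had a mean absolute difference of 1.33, was over 1 in 9 of 13 mice and was furthest apart in vehicle 2, with 6.41 FPKM on the left and 117 on the right. In vehicle 3 it stood at 16.8 and 3.73, and in anti-PD-1 4 at 23.5 and 4.55. Right was higher in 6 of 13 mice. Cck, the gene of the hormone cholecystokinin at chr9:121489824-121495694, was over 1 in 9 of 13 mice, with 71.4 and 3.52 FPKM in combination 1, 1.40 and 25.2 in anti-PD-1 4, and 11.2 and 49.0 in vehicle 2. Fgb, a fibrinogen chain, reached 119 FPKM in vehicle 4R against 1.86 in 4L.

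The 12 protein-coding genes with the highest mean absolute difference were taken among those with a mean log2 level of at least 1 and a gene name that is not a clone or predicted name. With Acta1, Cck, Fgb, Ccl5 and Retnla they held Inmt, a methyltransferase, and 6 more. Lcn11 and Obp2a, of the lipocalin family, had mean absolute differences of 1.71 and 1.63. The acute-phase proteins Saa1 and Saa3 had 1.57 and 1.42, and the protease inhibitor Spink8 and the defensin Defb45 had 1.52 and 1.51. Counted by sign over the 13 mice, a count chosen after the values were seen, Ccl5 and Saa1 moved the same way in 12 mice, Ccl5 and Lcn11 in 11, Spink8 and Fgb in 12 and Spink8 and Defb45 in 12, while Spink8 and Cck moved in opposite ways in 10.

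Antibody genes varied both within and between mice, and none passed the adjusted tests. Igkc, the constant part of the kappa light chain, was lower on the right in 10 of 13 mice (R minus L -1.22 ± 0.40 SE, limma adjusted p = 0.535). It stood at 121 and 33.3 FPKM in vehicle 1, 51.0 and 1.33 in vehicle 5, 29.0 and 2.74 in combination 1 and 257 and 126 in combination 4. Igkc was higher on the right in vehicle 2 (16.3 and 28.4), ESK981 5 (53.4 and 91.2) and combination 3 (101 and 195). Jchain, which joins IgA and IgM units, moved with it by sign in 12 mice. Of the 4 tested genes of the B and plasma cell list, 3 had an unadjusted host p under 0.05, against 15.6% of all genes, with a median intraclass correlation of 0.45.

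**Figure D4:**
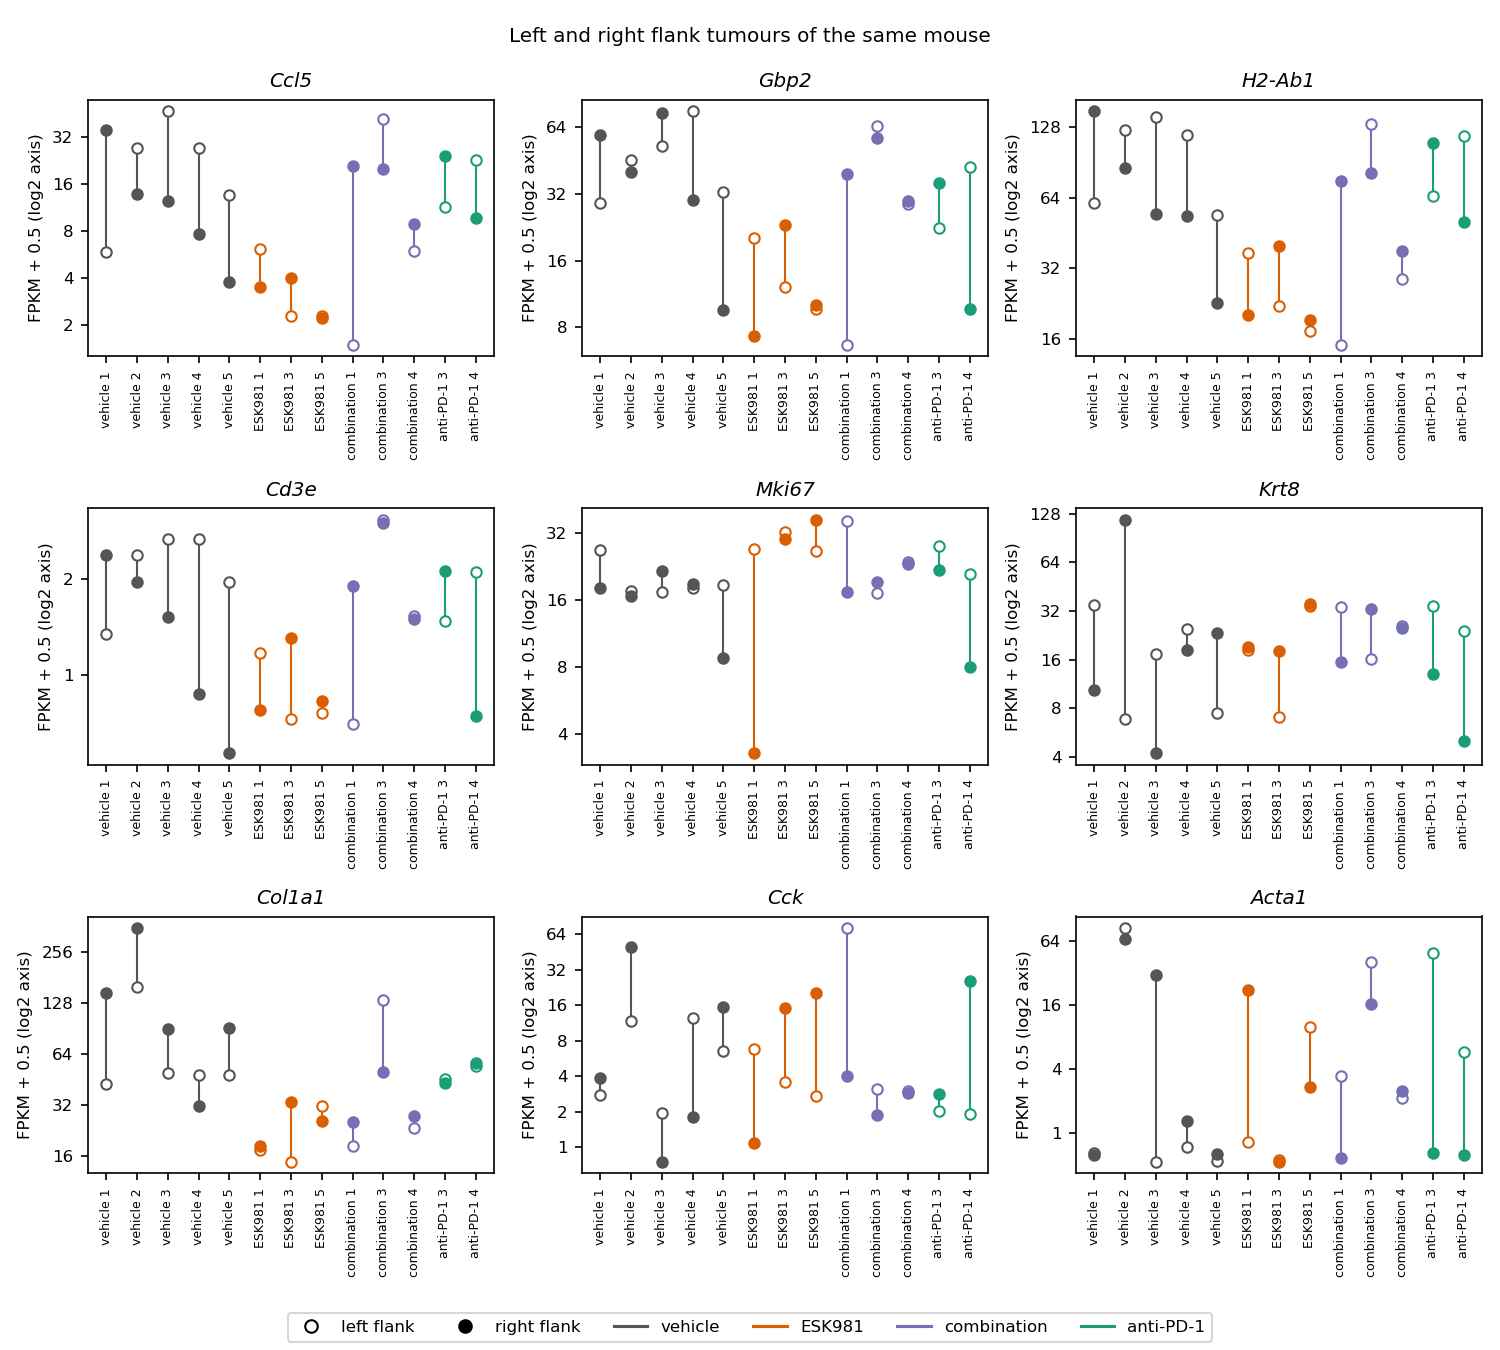
FPKM + 0.5 on a log2 axis of 9 genes in the left (open) and right (filled) tumour of each of 13 mice, joined by a line and coloured by treatment. Ccl5, Gbp2, H2-Ab1 and Cd3e are higher on the right in vehicle 1 and combination 1, Mki67 drops in ESK981 1R to 2.80 FPKM, and Acta1 is high in 1 flank in vehicle 3, ESK981 1 and anti-PD-1 3.

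At the other end were the genes with the smallest differences between the tumours of a mouse. Bag1, a cochaperone, and Galk2, a sugar kinase, both had a mean absolute difference of 0.083, and Bag1 ranged from 32.8 to 49.6 FPKM over the 26 tumours. Gabarapl2, an autophagy gene, and Supt5, an elongation factor, had 0.088 and 0.089, and the kinase Dyrk2 0.090. With median-of-ratios scaling Gabarapl2 and Supt5 had 0.184 and 0.159.

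Some pairs differed over many genes of 1 chromosome, a pattern sought after the values were seen. The medians of R minus L, relative to the median of all genes in the mouse, were computed over 6162 protein-coding genes with a mean log2 level of at least 2. Of 260 chromosome and mouse combinations, the median size was 0.035 and 7 exceeded 0.2. In vehicle 4, chromosome X had a median of -0.45 with 151 of 169 genes lower on the right, chromosome 19 had -0.40 (222 of 271) and chromosome 15 had -0.25 (229 of 292). In ESK981 3, chromosome 18 had -0.36, with 151 of 163 genes lower on the right. Chromosome 19 was also lower on the right in vehicle 2 (-0.28, 213 of 271) and combination 3 (-0.27, 215 of 271), and X in combination 1 (-0.24, 128 of 169).

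On chromosome 19 the difference was not even. In the first 20 Mb the medians were -0.65 in vehicle 4, -0.36 in vehicle 2 and -0.39 in combination 3, with 142 of 148, 130 of 148 and 142 of 148 genes lower on the right. From 40 to 60 Mb they were -0.043, -0.12 and -0.059. On chromosome 18 in ESK981 3 the medians per 20 Mb lay between -0.39 and -0.25. Against all 33 tumours, vehicle 4R was the lowest on chromosome 19 (-0.44) and on X (-0.37), and ESK981 3R was the lowest on chromosome 18 (-0.28). In combination 1, by contrast, the left tumour was the highest of the 33 on X (0.26), with the right at 0.033. These are RNA levels, and DNA was not analysed here.

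**Figure D5:**
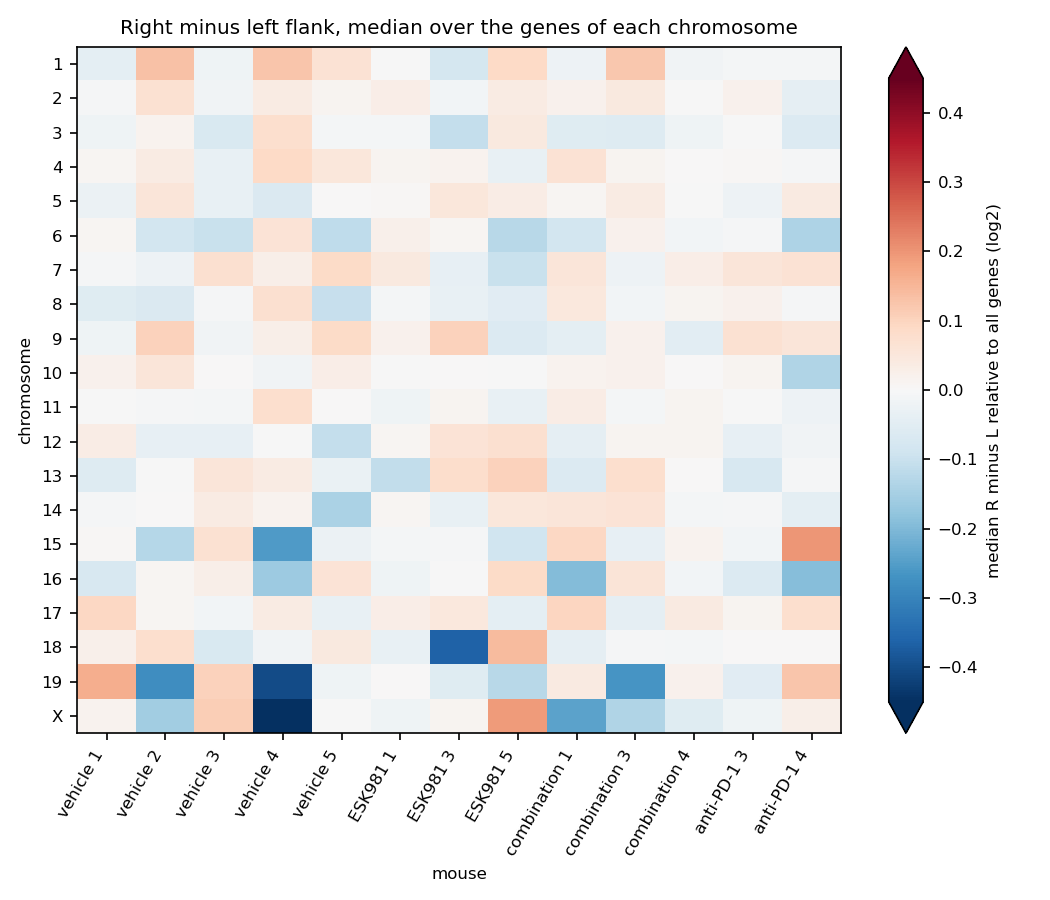
Median R minus L (log2, relative to all genes of the mouse) over the protein-coding genes of each chromosome (rows) for 13 mice (columns), with blue lower in the right tumour. Vehicle 4 is blue on chromosomes 15, 19 and X, and ESK981 3 on chromosome 18.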

How the data were processed

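RNA was sequenced from whole tumours after removal of ribosomal RNA, per the labels' protocols. The authors deposited FPKM for 48795 genes, made with STAR and featureCounts against mm10 per the submitters' processing notes. Versions, annotation and strand use were not given in the sources used here, so overlapping, antisense and near-identical genes are uncertain. Low FPKM values were whole multiples of 1 fragment (100% of values, within 0.01), which gave fragments per tumour. Gene identifiers were matched with their version to GENCODE M21 (41427 genes) for names and coordinates on GRCm38.

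Tested genes had 0.5 FPKM or more in 5 or more of 33 tumours. They were tested on log2(FPKM + 0.5) with limma 3.58.1 (R 4.3.3), with a mean-variance trend, the ear tag as block and Benjamini-Hochberg adjustment over 15846 genes, two-sided. The ear tag says that L and R grew in 1 mouse, which is where the pairing comes from. No count model was fitted. Single values used exact permutation tests, and correlations 100000 resamples (scipy 1.17.1). Scripts were tested on simulated data.

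Named genes were, by rule, those with the smallest p in each direction, the highest and lowest absolute differences, the leading members of the most and least variable lists, the smallest p for host and for treatment, and a set of marker genes. Members, gene lists and tests were chosen with earlier results of these data known. The 45 lists hold cell type, pathway and RNA quality genes, and NK cells (2 members tested) and skin (0) were not summarised. Some genes and motifs are not reported here.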

Additional observations from a re-analysis of the deposited data

Results flagged for a closer look

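In the 5 vehicle mice, 11 of 122 gene or list values had 1 mouse far from the other 4 (Dixon's test at 95%, in which chance flags about 1 in 20 groups). Many of the genes were named for large differences in these same data, and flagged genes are members of flagged lists. The rate of 1 in 20 is therefore no measure for this set. Vehicle 3 stood out for muscle, with R minus L of 5.82 for Acta1 and 4.36 for Ckm and a median of 2.99 for the muscle list, against at most 0.81 in the other vehicle mice for Acta1. Vehicle 1 stood out for immune genes, with 2.59 for Ccl5 (others -1.91 to -0.98), 1.94 for Ctss, 1.64 for Arg1, 1.24 for the class II list and 0.77 for the T cell list. Vehicle 3 also had 0.30 for the integrated stress response list, vehicle 2 had 0.77 for basal and squamous keratins, and vehicle 4 had -0.068 for Tmsb10 where the others lay between 0.63 and 0.83.

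The 43 lists were also compared between vehicle, ESK981 and the combination. In 3 cases every mouse of one group moved one way and every mouse of another the opposite way. These differences were not tested, and with so few mice per group some such cases arise by chance. The dendritic cell list had a mean R minus L of 0.27 in the combination and -0.45 in vehicle. Oxidative phosphorylation had 0.24 in the combination, against -0.31 in vehicle and -0.20 in ESK981.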

How the results depend on the processing

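The counts of 0 called genes between flanks held under every alternative run, the fit with no replicate block (no pairing by mouse) included, which gave 0 called and 766 genes at an unadjusted p under 0.05. For flank by treatment, only leaving out the filter gave calls (3). For the host effect, calls appeared with a pseudocount of 0.1 (2) and with no filter (79), and leaving out 1 mouse gave 0 to 1 (1 without combination 4). The median within-mouse difference of 0.311 lost its call with median-of-ratios scaling (0.278), without vehicle 5 and anti-PD-1 4 (0.264) and over pairs of the same run name and lane (0.290). Leaving out 1 mouse gave 0.285 to 0.326 with exact p from 0.0179 to 0.124, and the call was lost without vehicle 5, ESK981 3, combination 3, combination 4, anti-PD-1 3 or anti-PD-1 4. The cause was not tested. R minus L of the 76 named genes was not called in any of 1596 alternatives and changed sign in 117, in 36 genes. Median-of-ratios scaling changed the sign of 47 of 559 list values by mouse, none larger than 0.53. At an unadjusted 0.05, pairs of the same run name and lane gave 441 genes between flanks (1342 over all pairs) and 1541 for the host (2479), and no filter gave 4020 for the host and 913 for flank by treatment (315), which a stricter filter took to 189. Low fragment numbers limit single genes: over the 26 tumours the median was 1 fragment for S100a9, 5 for Hbb-bt, 30 for Cd8a and 38 for Acta1.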
